A study of Mus musculus with 27 samples.

Results

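The SLAM family of lymphocyte receptors and its adaptors was followed in RNA-seq of mouse P14 CD8 T cells through 7 genes, Slamf1, Slamf6, Slamf7, Ly9, Cd48, Sh2d1a and Sh2d2a. They were taken by symbol from the deposited expression tables, are 7 of the 35275 genes listed there, and all 7 had enough reads to be tested at every stage. Levels are given as FPKM, the fragments counted for a gene, corrected for the length of the gene and the depth of the library, and comparisons as the log2 fold change of FPKM scaled between libraries, with a pseudocount of 0.5. A gene was called when its Benjamini-Hochberg adjusted p from limma was below 0.05, with the adjustment over all genes tested. WT P14+, Lin28bTg P14+ and Let-7Tg P14+ T cells, named WT, lin28Tg and let-7Tg from here on, were compared at 3 stages with 3 libraries for each of the 9 groups. All mice carried the transgenic P14 T cell receptor on a Rag2-/- background, on which no lymphocyte rearranges its own antigen receptor. lin28Tg cells overexpress Lin28b, an RNA-binding protein that keeps let-7 precursors from maturing, whereas a let-7g transgene switched on by doxycycline is carried by let-7Tg cells. The promoter of the lin28 transgene is not given in the sources used here. Mice of both sexes were 6 to 10 weeks old and received doxycycline in the drinking water, control animals included. Naive cells, labelled as untreated, came from lymph nodes. Activated cells had received anti-CD3 (2 μg/mL) and anti-CD28 antibody (5 μg/mL) for 12 h. CTLs were started with irradiated splenocytes as feeder cells and soluble anti-CD3 (2 μg/mL), received IL-2 (100 U/mL), and were taken on day 5. All 12 h and day 5 cultures contained 2 μg/mL doxycycline. The labels number the libraries of a group but do not tie them to separate animals, so that p-values measure only the spread between these libraries.

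SLAM receptors are a family of immunoglobulin-like surface proteins, most of which bind the same receptor on a neighbouring cell. Their cytoplasmic tails recruit small SH2 domain adaptors, chiefly SAP, the product of Sh2d1a, which brings in the kinase Fyn and decides whether the receptor activates or inhibits. In T cells these receptors tune contacts with other lymphocytes, cytokine production and cytotoxicity, and loss of SAP causes X-linked lymphoproliferative disease. Cd48 differs from the rest in that it has no cytoplasmic tail and serves as the ligand of Cd244 and, in the mouse, of Cd2. Sh2d2a encodes TSAd, a T cell adaptor that binds kinases such as Lck and Txk.

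Libraries held 13862679 to 23590836 counted reads (median 16761360). Lin28b read 67.9, 56.4 and 66.1 FPKM in the naive lin28Tg libraries, 12.6, 10.2 and 9.94 FPKM at 12 h and 21.9, 13.998 and 22.4 FPKM in CTLs, and no library of another genotype exceeded 0.059 FPKM. Mature let-7 was not measured in these libraries. All 7 CD8 T cell markers examined were present in every group, but in naive cells they summed to 3983 to 4389 FPKM in lin28Tg libraries, below WT (5027 to 5864) and let-7Tg libraries (5131 to 5825). The naive lin28Tg libraries stood apart in RNA of other cell types, with 7 myeloid markers summing to 140 to 691 FPKM against 31.9 to 52.7 in WT and 21.8 to 52.5 in let-7Tg libraries, and 5 erythroid markers to 343 to 1360 FPKM against 104 to 199 and 1.83 to 33.1. Summed levels of 5 dendritic cell markers (39.0 to 86.5 against 12.7 to 27.5 FPKM in WT) and of 3 CD4 T cell markers (21.9 to 81.3 against 6.93 to 15.9 FPKM) were also higher there, while 7 B cell markers summed to 359 to 448 FPKM over the naive libraries of all genotypes. At 12 h the CD8 T cell sum was again lower in lin28Tg than in WT libraries (1748 to 2040 against 2199 to 2325 FPKM). Dendritic cell (9.04 to 11.8 against 3.32 to 4.42 FPKM) and CD4 T cell sums (3.81 to 4.55 against 1.71 to 2.52 FPKM) were higher. The other marker sums overlapped WT there. In CTLs the dendritic cell sum was 4.05 to 5.20 FPKM in lin28Tg against 0.477 to 1.20 in WT libraries. In these bulk libraries, fewer cells that express a gene cannot be told apart from less RNA of that gene per cell.

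The let-7g sequence and its shortest matches in the members are shown first, because the genotypes differ in let-7. Sequences and positions are from RefSeq and GENCODE on GRCm38.p6. In the mature miRNA, encoded at chr9:106178846-106178867 (+ strand), capitals mark the seed, bases 2 to 8, which 9 of the 10 mature mouse let-7 sequences examined share.
let-7g-5p: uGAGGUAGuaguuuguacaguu
The 3′ UTRs of 3 members held the letters TACCTC, the complement of bases 2 to 7, printed in capitals with their surroundings. The windows lie on the + strand at chr1:171800511-171800536 for Slamf1, chr1:171952122-171952147 and chr1:171952339-171952364 for Slamf6, and chrX:42529115-42529140 for Sh2d1a.
Slamf1 3′ UTR: cctatctcactgcaTACCTCtgtgta
Slamf6 3′ UTR, first match: caactagtacacaaTACCTCtaaata
Slamf6 3′ UTR, next match: cttaaaagattcctTACCTCcccacc
Sh2d1a 3′ UTR: gtaacggaatgttaTACCTCtctatg
The transcript with the longest coding sequence was read for each gene, on the strand of the gene. No member held a longer match, neither CTACCTC nor TACCTCA nor both overlapped as CTACCTCA. Slamf7, Ly9, Cd48 and Sh2d2a held none of these letters. Of 20690 genes 21% hold TACCTC, 7.99% CTACCTC, 8.64% TACCTCA and 2.67% the full CTACCTCA. The matches are descriptions of sequence and were not tested as sites.

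Activation of WT cells moved the family in opposite directions. Slamf1 and Slamf7 rose steeply within 12 h, the adaptor gene Sh2d2a rose with them, and Cd48 and Ly9 fell. Slamf1 was back near its naive level in CTLs while Slamf7 stayed high, and Slamf6 was lowest in CTLs. Between naive and 12 h activated WT cells 5 of the 7 members were called, 3 higher and 2 lower, in a comparison that called 71% of 14453 genes. Between 12 h and day 5 all 7 were called, 2 higher and 5 lower (67.5% of genes), and between naive cells and CTLs 4 were called, 1 higher and 3 lower (65.4%). The labels name no preparation or sequencing batch, so that stage and batch cannot be told apart. The stimulus differed too, with anti-CD3 and anti-CD28 for 12 h cells and feeder cells, anti-CD3 and IL-2 for CTLs. Between 12 h and day 5, time and stimulus therefore cannot be told apart. Stage comparisons also moved with the scaling: the median log2 fold change of all genes from naive to 12 h WT cells was -0.03 with scaling and -0.18 without.

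Slamf1 (chr1:171767127-171801184, + strand) encodes the self-binding receptor CD150, which costimulates T cells. It read 3.96, 4.00 and 3.99 FPKM in the naive WT libraries, 63.3, 86.2 and 63.4 FPKM at 12 h, and 4.23, 4.48 and 4.93 FPKM in CTLs. The 12 h libraries lay far above both other stages. The rise was 17.8-fold in mean FPKM (log2 fold change 4.22 ± 0.13 SE, adjusted p = 5.81e-17), and the fall to day 5 was 15.6-fold (log2 fold change -3.97, adjusted p = 3.53e-16).

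Slamf7 (chr1:171632403-171653035, - strand) encodes CRACC, a self-binding receptor of NK cells and activated lymphocytes. The naive WT libraries read 11.1, 5.76 and 6.28 FPKM, the 12 h libraries 48.6, 84.5 and 52.0 FPKM, and the CTLs 48.3, 50.2 and 34.0 FPKM. Naive values lay below all others, and those of 12 h and day 5 overlapped. Slamf7 was 7.98-fold higher at 12 h (log2 fold change 3.17 ± 0.24, adjusted p = 6.9e-11) and 5.71-fold higher in CTLs than in naive cells (log2 fold change 2.57, adjusted p = 3.73e-09). The smaller fall from 12 h to day 5 (log2 fold change -0.61, adjusted p = 0.029) was not called without scaling (0.127) or without the filter on low reads (0.0565), nor without WT replicate 2 of 12 h (0.192) or WT replicate 3 of day 5 (0.138).

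Slamf6 (chr1:171917515-171953170, + strand) encodes Ly108, a self-binding receptor that is a common surface marker of progenitor-like and memory-like T cells. The naive WT libraries read 25.1, 21.9 and 22.0 FPKM, the 12 h libraries 11.7, 19.8 and 13.99 FPKM and the CTLs 7.66, 5.54 and 8.99 FPKM. Each stage lay below the one before it with no overlap. The step to 12 h was not called (log2 fold change -0.37 ± 0.27, adjusted p = 0.229). From naive cells to CTLs Slamf6 fell 3.1-fold (log2 fold change -1.50, adjusted p = 4.74e-05).

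Ly9 (chr1:171588624-171607410, - strand), which encodes the self-binding receptor CD229, read 94.6 to 99.2 FPKM in naive WT cells and less at both later stages, 44.6 to 52.9 FPKM at 12 h and 41.2 to 47.7 FPKM in CTLs. It fell 2-fold by 12 h (log2 fold change -0.75, adjusted p = 8.02e-06). The further step from 12 h to day 5 (-0.29, 0.0403) was lost without scaling (0.326), with median of ratios scaling (0.0719), without the filter on low reads (0.0684), with these stages fitted alone (0.0873) and without WT replicate 1 or 3 of 12 h or WT replicate 1 or 2 of day 5 (0.0828 to 0.161). Its gene body overlaps that of Cd244a on the opposite strand, and whether the counting used strand is not stated, so that reads of the overlap are uncertain. Cd48 (chr1:171682009-171705258, + strand), the ligand, was the most abundant member in naive cells per length, with 150 to 160 FPKM in WT. It fell 3.23-fold by 12 h (log2 fold change -1.43, adjusted p = 3.73e-12) and rose 2.43-fold from 12 h to day 5 (1.12, 3.4e-10).

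The adaptor genes took different courses. Sh2d2a (chr3:87846755-87855722, + strand) read 52.1, 55.6 and 66.2 FPKM in naive WT cells, 122, 143 and 126 FPKM at 12 h and 65.2, 65.4 and 56.4 FPKM in CTLs. The 12 h values stood apart, and naive cells and CTLs overlapped. The rise to 12 h was 2.25-fold (log2 fold change 1.41, adjusted p = 1.91e-10). Sh2d1a (chrX:42502453-42529330, + strand), the gene of SAP, read 15.6, 19.2 and 20.0 FPKM in naive WT cells, 13.7, 5.57 and 8.45 FPKM at 12 h and 35.1, 35.4 and 15.1 FPKM in CTLs. Its 12 h values were the lowest, with no overlap with either other stage, and replicate 3 of day 5 lay below the naive range while the other two lay above it. The step to 12 h was not called (log2 fold change -0.78 ± 0.37, adjusted p = 0.0663), but was without scaling (0.018), with median of ratios scaling (0.044), with naive and 12 h libraries fitted alone (0.0397), and without WT replicate 1 of 12 h (0.0182), lin28Tg replicate 1 of 12 h (0.0484), let-7Tg replicate 1 of 12 h (0.0483) or WT replicate 3 of day 5 (0.0466), and the rise from 12 h to day 5 was 3.09-fold (1.42, 0.00203). The end of Sh2d1a overlaps Tenm1 on the opposite strand. Slamf6 and Slamf7 each overlap an antisense gene (Gm37065 and Gm37787), and the same uncertainty holds for their reads. Cd48 overlaps Gm37010 and Slamf7 overlaps Mir7683 on its own strand, so that reads of these overlaps are uncertain with or without strand.

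**Figure D1:**
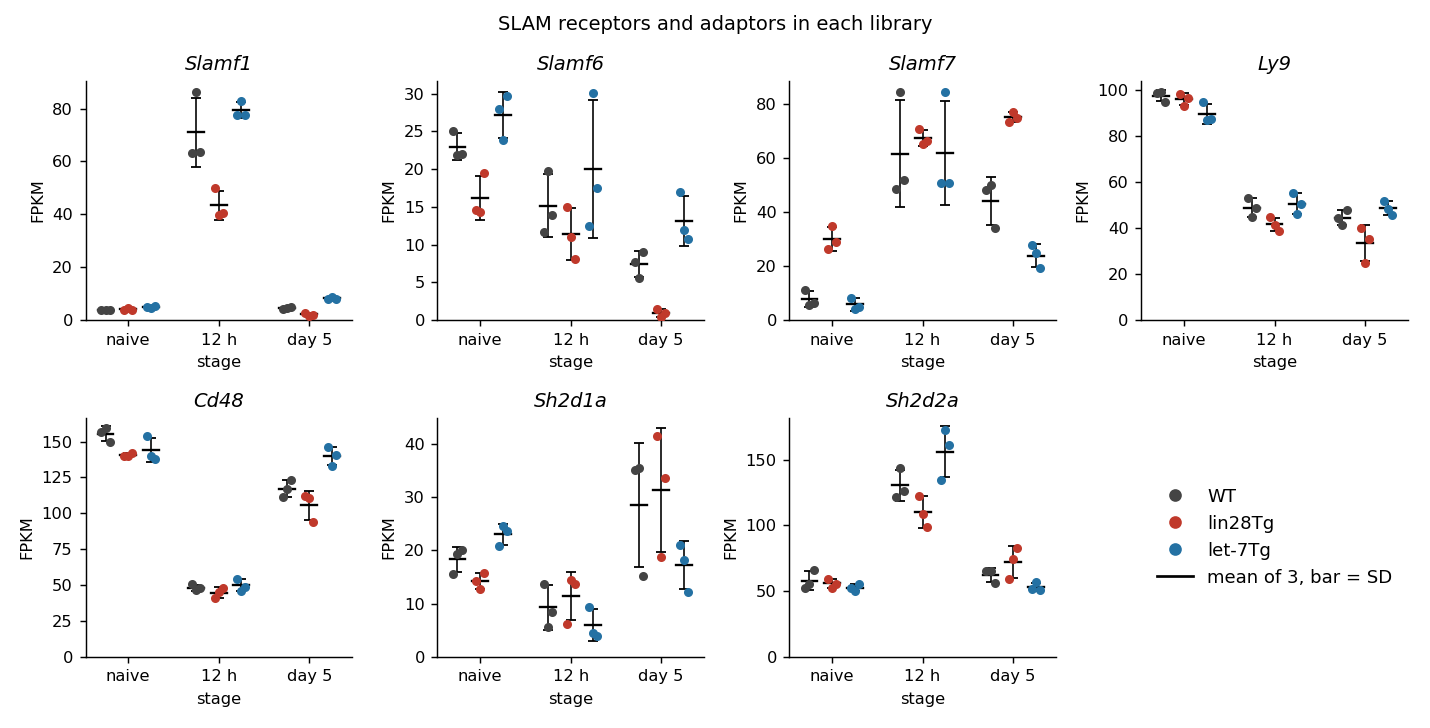
FPKM (vertical axis, linear, from 0) of each of the 7 genes in the 27 libraries, 1 panel a gene, by stage on the horizontal axis and genotype by colour, with the mean of 3 libraries as a line and the SD as a bar. Slamf1 peaks at 12 h in each genotype, Slamf6 is lowest in lin28Tg CTLs (0.466 to 1.49 FPKM), and Slamf7 is high in naive lin28Tg cells (26.3 to 34.8 FPKM) relative to the other naive groups.

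The promoters of Slamf1 and Slamf7 are printed because both genes rose within 12 h. They were searched on both strands for TGANTCA, the AP-1 motif, TGTGGT (RUNX), CTTTGA (TCF/LEF) and AGGTGT (T-box), of which no pair overlaps in the windows shown. RefSeq windows of 300 bases were available for Slamf1, Slamf6, Slamf7 and Cd48 among the members, and Ly9, Sh2d1a and Sh2d2a had no entry. The Slamf1 window, chr1:171766882-171767181 (+ strand), holds 1 T-box match on the opposite strand, 163 bases before the start, shown in capitals.
Slamf1 promoter: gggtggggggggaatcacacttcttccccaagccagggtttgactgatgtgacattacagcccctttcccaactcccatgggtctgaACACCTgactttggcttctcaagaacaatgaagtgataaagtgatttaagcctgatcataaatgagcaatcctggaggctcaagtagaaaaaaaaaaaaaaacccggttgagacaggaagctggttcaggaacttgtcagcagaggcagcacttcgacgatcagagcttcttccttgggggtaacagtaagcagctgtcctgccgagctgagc
The Slamf7 window, chr1:171648950-171649249 (- strand), lies inside the gene body as GENCODE draws it and holds 1 AP-1 match 42 bases before the RefSeq start, shown in capitals.
Slamf7 promoter: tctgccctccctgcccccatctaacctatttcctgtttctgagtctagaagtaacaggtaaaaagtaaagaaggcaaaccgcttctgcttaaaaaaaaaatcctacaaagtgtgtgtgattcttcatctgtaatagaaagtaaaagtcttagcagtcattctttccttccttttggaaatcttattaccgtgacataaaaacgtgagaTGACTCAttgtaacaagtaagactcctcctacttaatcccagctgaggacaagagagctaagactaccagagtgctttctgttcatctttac
The Slamf6 window held none of the 4 motifs, and the Cd48 window held 1 TCF/LEF and 1 RUNX match. Among 32851 windows of the same length 7.81% hold the AP-1 letters, 16.8% RUNX, 16% TCF/LEF and 13.7% T-box, so that a match is common and describes the letters alone.

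In CTLs, the 3 receptors that differed between lin28Tg and WT split in direction. Slamf6 and Slamf1 were lower and Slamf7 was higher in lin28Tg CTLs, and the let-7Tg means lay on the other side of WT for all 3. Between lin28Tg and WT CTLs 3 of 7 members were called, 1 higher and 2 lower, where 4.34% of 13030 genes were called. Between let-7Tg and WT CTLs 1 member, Slamf7, was called lower (0.929% of genes), and between lin28Tg and let-7Tg CTLs 5 were called, 2 higher and 3 lower (21.6%). In absolute log2 fold change the 7 members had medians of 0.38, 0.71 and 0.92 in these comparisons, beside 0.17, 0.13 and 0.25 over all genes tested. The members were chosen with earlier results of these data known, so that the counts and medians are descriptions only. The comparisons with WT share the WT libraries, so that their values are given side by side only. Same-numbered CTL libraries deviated together, as given below, and these tests and the leave-outs did not pair them. With the replicate number as a block, limma kept the calls against WT. Adjusted p was then 0.0144 (Slamf1), 0.0012 (Slamf6) and 0.00536 (Slamf7) for lin28Tg and 0.0146 (Slamf7) for let-7Tg.

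Slamf6 differed most among the members in CTLs. Its levels were 7.66, 5.54 and 8.99 FPKM in WT, 1.49, 0.466 and 0.885 FPKM in lin28Tg and 17.0, 11.9 and 10.7 FPKM in let-7Tg libraries. No group overlapped another, and the lin28Tg libraries held 24 to 70 reads of the gene. lin28Tg CTLs were 7.82-fold lower than WT (log2 fold change -2.45 ± 0.29, adjusted p = 0.00435) and 13.9-fold lower than let-7Tg CTLs (-3.19 ± 0.29, 0.000256). Leaving out any 1 of the 9 libraries kept the call against WT, with adjusted p up to 0.0245. Between let-7Tg and WT the log2 fold change was 0.74 ± 0.29 (adjusted p = 0.315). The sums of the B cell and stromal marker lists were, like Slamf6 and Slamf1, lower in lin28Tg than in WT CTLs. The 7 B cell markers summed to 242, 190 and 232 FPKM in WT, 143, 32.0 and 95.1 FPKM in lin28Tg and 248, 210 and 178 FPKM in let-7Tg CTLs, in the same order of libraries as Slamf6 within lin28Tg and within let-7Tg. Ighm made up most of that sum, while Ms4a1 was at 0 in all 9 libraries and Pax5 reached at most 0.0521 FPKM. The 5 stromal markers summed to 12.9 to 18.8 FPKM in WT, 3.13 to 7.54 FPKM in lin28Tg and 20.1 to 34.8 FPKM in let-7Tg CTLs, mostly through Pecam1, with Cdh5 at or near 0. Their part in the Slamf6 and Slamf1 differences was not tested.

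Slamf1 read 4.23, 4.48 and 4.93 FPKM in WT, 2.86, 1.63 and 1.90 FPKM in lin28Tg and 7.87, 8.83 and 7.89 FPKM in let-7Tg CTLs, with no overlap between groups. In lin28Tg CTLs it was 2.13-fold lower than in WT (log2 fold change -0.92 ± 0.17, adjusted p = 0.022) and 3.85-fold lower than in let-7Tg CTLs (-1.66 ± 0.17, 0.000427). The call against WT was lost without any of the 3 WT libraries and without lin28Tg replicate 2 or 3, with adjusted p between 0.0592 and 0.092, as well as without the filter on low reads (0.0555) and with the lin28Tg and WT libraries fitted alone (0.0656). The let-7Tg mean was 1.8-fold that of WT, with a log2 fold change of 0.73 ± 0.17 that was not called (adjusted p = 0.0877) but was in a fit of all 27 libraries (0.00201).

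Slamf7 ran the other way. Its levels were 48.3, 50.2 and 34.0 FPKM in WT, 73.4, 77.0 and 74.8 FPKM in lin28Tg and 27.7, 24.8 and 19.2 FPKM in let-7Tg CTLs. All lin28Tg libraries lay above all WT libraries, and all let-7Tg libraries below them. It was 1.7-fold higher in lin28Tg than in WT (log2 fold change 0.83 ± 0.16, adjusted p = 0.0223) and 3.14-fold higher than in let-7Tg CTLs (1.75 ± 0.16, 0.000243). Without WT replicate 1, lin28Tg replicate 2 or lin28Tg replicate 3 the call against WT was lost, at 0.057 to 0.0925. The lower level in let-7Tg than in WT CTLs (log2 fold change -0.92 ± 0.16, adjusted p = 0.0376) was still called without WT replicate 3 and lost without each of the other 8 (0.0564 to 0.176), and voom on recovered reads did not call it (0.051). NK cell markers moved with Slamf7 in CTLs. The 4 markers summed to 63.5 to 161 FPKM in lin28Tg, 10.6 to 43.7 in WT and 3.01 to 6.15 in let-7Tg libraries, mostly through Klrb1c, which read 93.9, 60.8 and 158 FPKM in lin28Tg and 17.2, 40.6 and 8.35 FPKM in WT CTLs. Ncr1, the defining marker among them, was at 0 in all WT libraries and at most 0.0896 FPKM in the others. The 7 myeloid markers summed to 7.53 to 11.4 FPKM in lin28Tg against 3.75 to 5.77 in WT CTLs, with Lyz2 at 0 in WT and at most 0.0375 FPKM in lin28Tg libraries.

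Cd48 read 111, 117 and 123 FPKM in WT, 112, 111 and 93.7 FPKM in lin28Tg and 146, 133 and 140 FPKM in let-7Tg CTLs. Only the let-7Tg libraries stood clear of both others. Cd48 was called lower in lin28Tg than in let-7Tg CTLs (log2 fold change -0.30, adjusted p = 0.0449), a call kept without WT replicate 3 and lost without each of the other 8 libraries (0.0523 to 0.146). That call was also lost by voom on recovered reads (0.0547), without the filter on low reads (0.062) and with the lin28Tg and let-7Tg libraries fitted alone (0.0519). Ly9 was 40.0, 24.9 and 35.4 FPKM in lin28Tg CTLs against 41.2 to 47.7 in WT and 45.5 to 51.7 in let-7Tg CTLs, and no comparison called it (log2 fold change -0.38 ± 0.15, adjusted p = 0.217 against WT and -0.45 ± 0.15, 0.0669 against let-7Tg). The lin28Tg libraries lay below all others. Ly9 was called against WT in a fit of all 27 libraries (0.0459). Against let-7Tg it was called in that fit (0.00586), with the replicate number as a block (0.0233), without scaling (0.0335) and without lin28Tg replicate 1 (0.0319).

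Of the adaptor genes, Sh2d2a read 65.2, 65.4 and 56.4 FPKM in WT, 58.8, 74.3 and 82.8 FPKM in lin28Tg and 51.5, 56.7 and 51.0 FPKM in let-7Tg CTLs. WT overlapped both other groups. It was called between lin28Tg and let-7Tg CTLs (log2 fold change 0.53, adjusted p = 0.0191), but not without lin28Tg replicate 2, lin28Tg replicate 3 or let-7Tg replicate 1, where the adjusted p lay between 0.072 and 0.0743. Sh2d1a varied widely within groups, with 35.1, 35.4 and 15.1 FPKM in WT, 41.5, 18.7 and 33.6 FPKM in lin28Tg and 20.99, 18.3 and 12.2 FPKM in let-7Tg CTLs, all overlapping. No genotype comparison of CTLs called it, and the log2 fold change between lin28Tg and let-7Tg was 0.92 ± 0.37 (adjusted p = 0.109, but 0.0481 with the replicate block and 0.0441 without WT replicate 3).

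**Figure D2:**
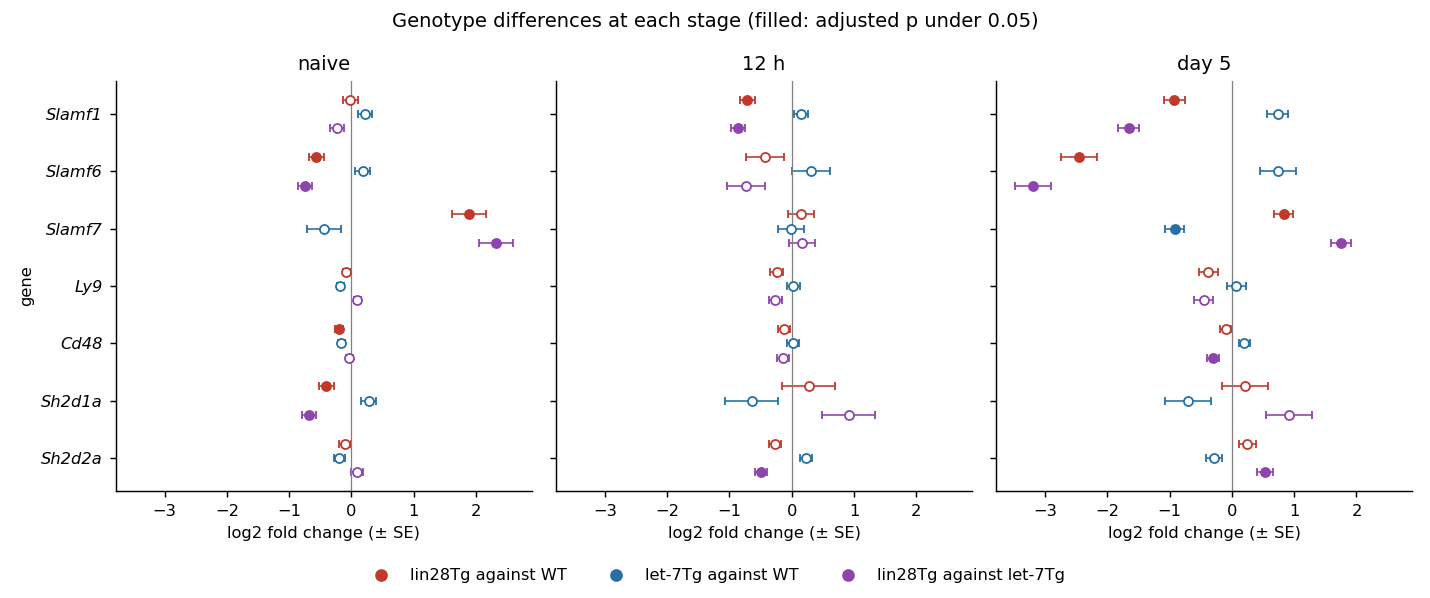
Log2 fold change (horizontal axis) of the 7 genes in the 3 genotype comparisons at each stage, with bars of 1 SE and filled points where the adjusted p is under 0.05. Against WT, the widest differences are those of Slamf6 in lin28Tg CTLs (-2.45) and Slamf7 in naive lin28Tg cells (1.88), whereas at 12 h Slamf1 is the only member called against WT.

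In naive cells Slamf7 was higher in lin28Tg than in WT, and Slamf6, Cd48 and Sh2d1a were lower by smaller amounts. Between lin28Tg and WT naive cells 4 of 7 members were called, 1 higher and 3 lower, in a comparison that called 34.9% of 13277 genes. Between let-7Tg and WT naive cells limma called 0 members (0.934% of genes), 3 had an unadjusted p under 0.05, and limma-voom on recovered reads also called 0. Between lin28Tg and let-7Tg 3 were called, 1 higher and 2 lower (44.2%). The median log2 fold change of the members was -0.11 for lin28Tg against WT, beside -0.04 for all genes, and the median absolute value 0.20 beside 0.23.

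Naive Slamf7 levels were 11.1, 5.76 and 6.28 FPKM in WT, 26.3, 34.8 and 28.9 FPKM in lin28Tg and 8.35, 4.01 and 5.00 FPKM in let-7Tg libraries. The lin28Tg libraries lay above all others, and WT and let-7Tg overlapped. Slamf7 was 3.88-fold higher in lin28Tg than in WT (log2 fold change 1.88 ± 0.27, adjusted p = 0.00125) and 5.18-fold higher than in let-7Tg cells (2.32 ± 0.27, 0.000244), and no library decided the call. Markers of other cell types moved with it. Lyz2, a macrophage and granulocyte gene, read 96.2, 491 and 272 FPKM in lin28Tg replicates 1 to 3 against 19.2 to 32.5 FPKM in WT, and 4 NK cell markers summed to 27.6 to 83.8 against 12.3 to 25.9 FPKM. Their part in the naive Slamf7 difference was not tested.

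**Figure D3:**
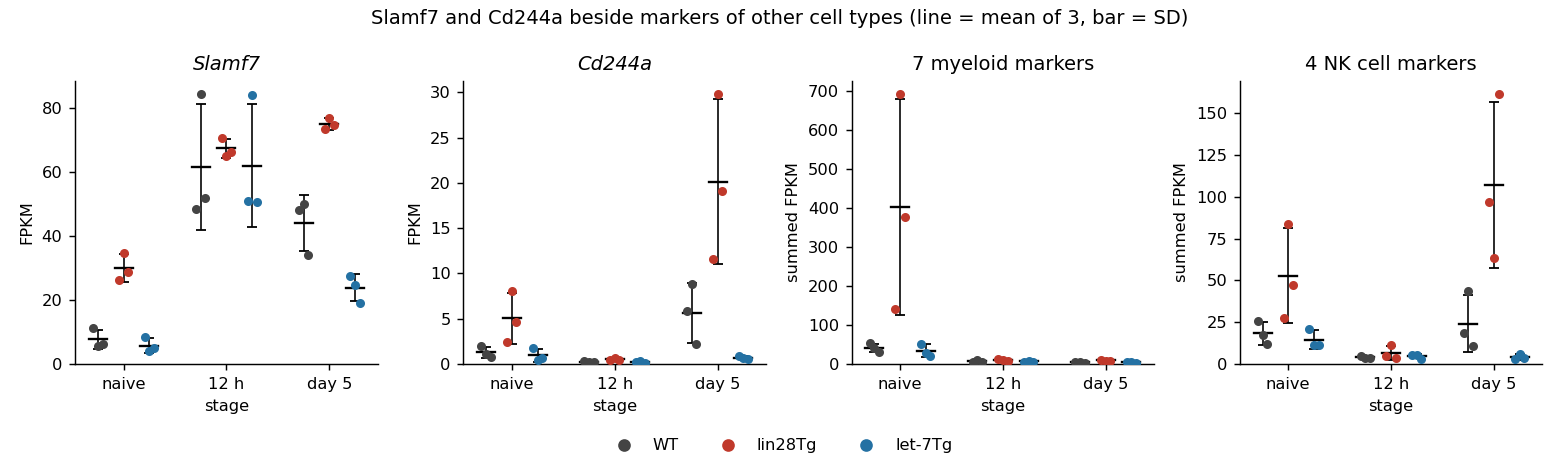
FPKM of Slamf7 and Cd244a and summed FPKM of 7 myeloid and 4 NK cell markers (vertical axes, linear, from 0) in the 27 libraries by stage and genotype, with the mean of 3 as a line and the SD as a bar. The myeloid sum is highest in naive lin28Tg libraries (140 to 691 FPKM), and the NK sum is highest in lin28Tg CTLs (63.5 to 161 FPKM).

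Slamf6 read 25.1, 21.9 and 22.0 FPKM in naive WT, 14.7, 14.3 and 19.6 FPKM in lin28Tg and 28.01, 23.9 and 29.7 FPKM in let-7Tg cells. The lin28Tg libraries lay below the rest. It was 1.42-fold lower in lin28Tg than in WT cells (log2 fold change -0.56 ± 0.12, adjusted p = 0.00616), and the call held without any 1 library but not in a fit of all 27 libraries (0.15). Cd48 was 140 to 142 FPKM in lin28Tg against 150 to 160 FPKM in WT (log2 fold change -0.20, adjusted p = 0.023), and Sh2d1a 14.2, 12.8 and 15.8 FPKM against 15.6, 19.2 and 20.0 FPKM, ranges that overlap by 1 library (-0.40, 0.0266). Both differences were small. The call of Cd48 was lost without scaling (0.0851), in the fit of all 27 libraries (0.154) and without WT replicate 1 or 2 or any lin28Tg library (0.0516 to 0.0891). That of Sh2d1a was lost in the fit of all 27 libraries (0.492) and without WT replicate 2 or 3 or lin28Tg replicate 1 or 2 (0.0542 to 0.0979). Slamf6 (log2 fold change -0.75, adjusted p = 0.00107) and Sh2d1a (-0.68, 0.00178) were also lower in lin28Tg than in let-7Tg cells, where Sh2d1a read 20.8, 24.6 and 23.6 FPKM, and the Sh2d1a call was lost in the fit of 27 (0.18). The summed CD8 T cell markers were lower in the naive lin28Tg libraries too, as given above, and their part in these differences was not tested. Slamf1, Ly9 and Sh2d2a were not called between any genotypes in naive cells, with log2 fold changes from -0.24 to 0.22. Slamf1 in the let-7Tg libraries (4.57 to 5.20 FPKM) lay above all WT libraries (3.96 to 4.00 FPKM), as did Sh2d1a. Ly9 lay below the WT libraries. None of these was called (adjusted p = 0.437, 0.325 and 0.182), and how many of all genes lie apart in this way was not counted.

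At 12 h the genotype differences were few. Between lin28Tg and WT 1 of 7 members was called, Slamf1, which was lower (8.49% of 12239 genes called). Between let-7Tg and WT limma called 0 members (3.24% of genes), 1 had an unadjusted p under 0.05, and voom called 0. Between lin28Tg and let-7Tg 2 were called, both lower (30.8%). Slamf1 levels were 63.3, 86.2 and 63.4 FPKM in WT, 49.8, 39.9 and 40.4 FPKM in lin28Tg and 77.7, 82.9 and 77.7 FPKM in let-7Tg cells. The lin28Tg libraries lay below all others, and WT and let-7Tg overlapped. Slamf1 was 1.64-fold lower in lin28Tg than in WT cells (log2 fold change -0.71 ± 0.12, adjusted p = 0.00629) and 1.83-fold lower than in let-7Tg cells (-0.86, 0.000776), and neither call was lost without any 1 library. Marker sums that differed between the 12 h lin28Tg and WT libraries are given above, and their part in the Slamf1 difference was not tested. Sh2d2a, with 122, 109 and 98.3 FPKM in lin28Tg and 134, 173 and 161 FPKM in let-7Tg cells, was lower in lin28Tg (-0.49 ± 0.10, 0.00617). Slamf7 levels overlapped across genotypes, with 48.6 to 84.5 FPKM in WT, 65.2 to 70.8 FPKM in lin28Tg and 50.8 to 84.3 FPKM in let-7Tg cells (log2 fold change 0.16 ± 0.21 for lin28Tg against WT, adjusted p = 0.692). Slamf6 ranged from 8.09 to 30.2 FPKM over the 9 libraries with every group overlapping every other, and Ly9 was not called between lin28Tg and let-7Tg (log2 fold change -0.27, adjusted p = 0.0809) but was with the replicate block (0.0387), without scaling (0.0417) and without let-7Tg replicate 2 (0.0185).

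Whether a genotype difference itself differed between stages was tested as an interaction over all 27 libraries. For lin28Tg against WT, 2 members were called between naive and 12 h (8.05% of 14453 genes), 2 between 12 h and day 5 (6.39%) and 3 between naive cells and CTLs (14.8%). The lin28Tg difference of Slamf6 was larger in CTLs than at 12 h by -2.00 ± 0.38 on the log2 scale (adjusted p = 0.0021) and larger than in naive cells by -1.92 ± 0.38 (0.0015). That of Slamf1 was -0.02 ± 0.12 in naive cells, a value whose sign changed with the scaling, and shifted by -0.93 ± 0.19 in CTLs (0.0016). That of Slamf7 was smaller at 12 h than in naive cells, by -1.77 ± 0.34 for 12 h minus naive (0.00269). For let-7Tg against WT limma called 0 members in all 3 interactions (0.0761%, 1.49% and 0.346% of genes), with 1, 3 and 2 members at an unadjusted p under 0.05 and 0 by voom.

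The stages were also compared within each transgenic genotype. In lin28Tg cells 5 members were called from naive to 12 h (73.5% of genes), 6 from 12 h to day 5 (66.3%) and 7 from naive to day 5 (68%). In let-7Tg cells the counts were 6 (69.3%), 6 (67.1%) and 4 (62.6%). Slamf1 rose 10.6-fold by 12 h in lin28Tg and 16.2-fold in let-7Tg cells. Slamf6 fell 17.1-fold from naive cells to CTLs in lin28Tg (log2 fold change -3.42, adjusted p = 2.86e-10) and 2.06-fold in let-7Tg cells (-0.94, 0.00458). Slamf7 rose 2.25-fold by 12 h in lin28Tg and 10.7-fold in let-7Tg cells, from naive means of 30.0 ± 4.35 and 5.79 ± 2.27 FPKM (SD, n = 3). Sh2d1a fell 3.9-fold by 12 h in let-7Tg cells (log2 fold change -1.75, adjusted p = 0.000261) and read 14.2, 12.8 and 15.8 against 6.22, 14.4 and 13.6 FPKM in lin28Tg cells, where the ranges overlap (-0.16, 0.72).

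Ordered by mean FPKM over the 9 groups, Slamf1 ran from let-7Tg at 12 h (79.4) through WT (71.0) and lin28Tg at 12 h (43.4) to let-7Tg CTLs (8.20) and, at the bottom, lin28Tg CTLs (2.13), and 4 of the 8 neighbouring pairs in that order overlapped in range. Slamf6 ran from let-7Tg naive cells (27.2) to lin28Tg CTLs (0.946), and only the last step, from WT CTLs (7.40), was free of overlap, with 7 of 8 pairs overlapping. For Slamf7 the highest group was lin28Tg CTLs (75.1) and the lowest let-7Tg naive cells (5.79), with 6 of 8 pairs overlapping. Ly9 (naive groups above all others), Sh2d1a (12 h groups below all others) and Sh2d2a (12 h groups above all others) each had 7 overlapping pairs, and Cd48 (12 h groups below all others) had 6. Such overlaps were not counted over all genes, so that these counts describe the members only. The highest library exceeded the lowest 64.7-fold for Slamf6, 52.8-fold for Slamf1, 21.1-fold for Slamf7, 10.5-fold for Sh2d1a and between 3.46-fold and 3.99-fold for Sh2d2a, Cd48 and Ly9.

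The genes whose log2 levels ran most like each member were sought among 10832 genes over the 27 libraries, as a description, since all points share stage, library and genotype. Slamf1 ran most like Chst2 (Pearson r 0.986), Hivep3 (0.977) and Npas4 (0.977), Slamf6 like Maml2 (0.938), Cd27 (0.930) and Inf2 (0.927), and Slamf7 like Ell2 (0.959), Snx9 (0.955) and Spire1 (0.950). For the rest the closest genes were Tdrp for Ly9 (0.955), Casp8 for Cd48 (0.980), Pigx for Sh2d1a (0.868) and Zfp330 for Sh2d2a (0.975). After removal of the stage means the closest were Per3 (0.917), Timp2 (0.917) and Serpini1 (0.912) for Slamf1, Ms4a6b (0.959), Atp10d (0.944) and Pacsin1 (0.944) for Slamf6, and Emilin2 (0.933), Extl1 (0.931) and S100a4 (0.924) for Slamf7. Ly9 was then closest to Chst15 (0.846), Cd48 to Mat2b (0.788), Sh2d1a to Malt1 (0.794) and Sh2d2a to Jarid2 (0.804).

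The other SLAM receptors measured were Cd84, Cd244a, Slamf8 and Slamf9. Cd84, a self-binding receptor whose gene lies between Slamf1 and Slamf6, read 24.4, 25.6 and 21.6 FPKM in WT, 14.99, 11.3 and 13.4 FPKM in lin28Tg and 32.3, 30.0 and 24.2 FPKM in let-7Tg CTLs. The lin28Tg libraries lay below all others. It was lower in lin28Tg than in WT CTLs (log2 fold change -0.78 ± 0.13, adjusted p = 0.0152) and naive cells (-0.29, 0.0378), lower than in let-7Tg cells at all 3 stages (-0.64, -1.08 and -0.99), and higher in let-7Tg than in WT cells at 12 h (0.64, 0.0468). Cd244a, the gene of the Cd48 receptor 2B4 that NK cells and cytotoxic T cells carry, read 5.86, 8.86 and 2.18 FPKM in WT, 11.6, 29.8 and 19.1 FPKM in lin28Tg and 0.896, 0.646 and 0.592 FPKM in let-7Tg CTLs. No group overlapped another. It was called between lin28Tg and let-7Tg CTLs (log2 fold change 4.09 ± 0.45, adjusted p = 0.000592) and not between lin28Tg and WT CTLs (1.88 ± 0.45, 0.0515). Its groups stood in the same order as the NK cell marker sums given above. Within lin28Tg CTLs those sums read 97.0, 63.5 and 161 FPKM, an order of libraries unlike that of Cd244a. In naive cells Cd244a (1.49, 0.0226), Slamf8 (2.07, 0.00334) and Slamf9 (1.59, 0.00376), the latter pair known from myeloid cells and Slamf8 named after its values were seen, were higher in lin28Tg than in WT cells, as were the myeloid markers, so that all 4 further receptors tested were called there, 3 higher and 1 lower, in a comparison that called 34.9% of genes. Slamf9 was at 0 in all CTL libraries and Slamf8 had at most 1 read. The part of other cells in these values was not tested.

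**Figure D4:**
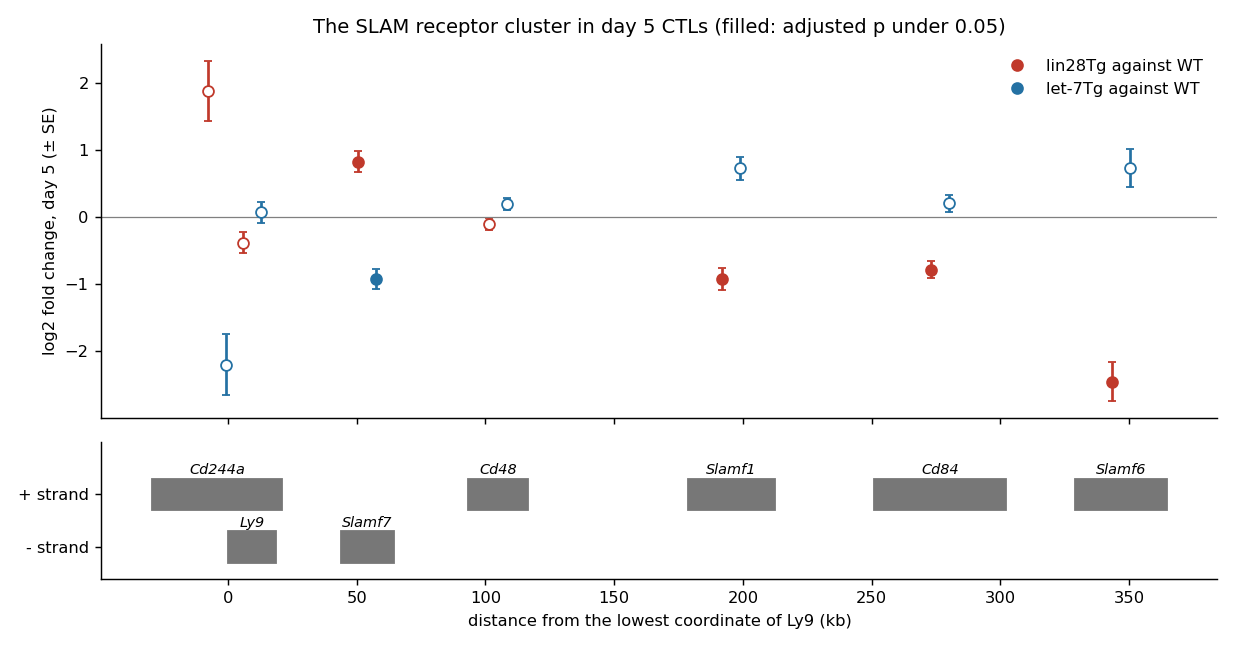
Log2 fold change in CTLs (upper panel, bars of 1 SE, filled where the adjusted p is under 0.05) of the 7 SLAM receptor genes of the cluster on chromosome 1, at each gene's middle with the genotypes slightly offset, above a map of the gene bodies by strand (horizontal axis, kb from the lowest coordinate of Ly9). Against WT, lin28Tg is higher at Slamf7 (0.83) and lower at Slamf1 (-0.92), Cd84 (-0.78) and Slamf6 (-2.45).

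The 5 member genes on chromosome 1 span 364547 bp, and genes within 1 Mb of that span were counted beside them. The neighbours include Cd84 and Cd244a. In CTLs 2 of 36 tested neighbours were called between lin28Tg and WT (4.34% of all genes), Fcer1g (log2 fold change 3.42, adjusted p = 0.0146), a signaling chain of Fc and NK receptors, and Cd84. Between let-7Tg and WT CTLs limma called 0 of 36, with 4 at an unadjusted p under 0.05, and between lin28Tg and let-7Tg 12 of 36 were called (21.6% of all genes). In naive cells 20 of 40 were called between lin28Tg and WT (34.9% of all genes), 13 higher and 7 lower, led by Fcgr2b (2.13, 0.0017), F11r (1.79, 0.00184), Igsf9 (1.102, 0.00245) and the macrophage Fc receptor gene Fcgr3 (2.54, 0.00298). The neighbours' median log2 fold change there was 0.05, beside -0.04 for all genes.

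Genes of the signaling chain behind the receptors were taken from a list. Of its 13 genes of SLAM and SAP signaling, 4 were called between lin28Tg and WT naive cells (2 higher, 2 lower), 1 at 12 h and 1 in CTLs, beside 34.9%, 8.49% and 4.34% of all genes, and 0 of 13 by limma between let-7Tg and WT at any stage, with 3, 1 and 1 at an unadjusted p under 0.05. Their median log2 fold changes for lin28Tg against WT were -0.03, -0.10 and 0.01, beside -0.04, -0.01 and 0.00 over all genes. In naive lin28Tg cells Dok1, a docking protein that dampens Ras signaling, was higher than in WT (log2 fold change 0.73, adjusted p = 0.000794), while Prkcq, the T cell protein kinase C theta (-0.56, 0.00164), and Rasa1, a Ras GTPase-activating protein (-0.38, 0.00493), were lower. Prkcq and Rasa1 were also lower in lin28Tg than in let-7Tg cells at all 3 stages (Prkcq -0.70, -0.59 and -0.54, Rasa1 -0.63, -0.44 and -0.52). Fyn, the kinase that SAP recruits, was the gene called at 12 h (294 against 215 mean FPKM in WT and lin28Tg, -0.47, 0.0284), and Ptpn6, the phosphatase SHP-1, the one called in CTLs (-0.73, 0.0195). Both were named after their values were seen. The part of the 12 h marker sums in the Fyn difference was not tested.

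Among the kinases that TSAd binds, Txk (log2 fold change -0.54, adjusted p = 0.000485) was lower in naive lin28Tg than in WT cells, and Lck was not called against WT at any stage. In CTLs Txk (0.36, 0.0279) and Lck (0.24, 0.0277) were higher in lin28Tg than in let-7Tg cells. Of the related adaptors, Hsh2d was called lower in let-7Tg than in WT cells at 12 h (-0.80, 0.0471), and Sh2d1b2, which encodes an EAT-2 type adaptor of NK cells, was called only between naive lin28Tg and let-7Tg cells (1.54, 0.0135).

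Cd2, the partner of Cd48 on T cells, was lower in lin28Tg than in WT cells at every stage. It read 430, 452 and 432 FPKM in WT and 371, 342 and 321 FPKM in lin28Tg naive cells (log2 fold change -0.41, adjusted p = 0.00679), 97.4, 67.1 and 65.4 against 39.5, 41.9 and 35.4 FPKM at 12 h (-0.96, 0.00557) and 246, 215 and 351 against 162, 116 and 142 FPKM in CTLs (-0.87, 0.0374). The groups did not overlap at any stage. Summed CD8 T cell markers were also lower in lin28Tg than in WT libraries of naive and 12 h cells, as given above. In CTLs those sums overlapped (2449 to 2721 against 2668 to 2951 FPKM). Their part in the Cd2 difference was not tested. let-7Tg cells read 452 to 512, 90.7 to 118 and 359 to 414 FPKM and were not called against WT. Cd2ap, which links Cd2 to the cytoskeleton, was lower in lin28Tg cells at 12 h (-0.48, 0.0046), and Pstpip1, another Cd2 tail binding protein, was lower in naive lin28Tg cells (-0.24, 0.0151). Of the 4 genes of this axis 2 were called at naive and 12 h stages and 1 in CTLs between lin28Tg and WT, all lower, beside 34.9%, 8.49% and 4.34% of all genes, and limma called 0 between let-7Tg and WT, with 0, 1 and 1 at an unadjusted p under 0.05.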

How the data were processed

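RNA-seq libraries were prepared from P14 CD8 T cells of 3 genotypes at 3 stages, with 3 libraries for each of the 9 groups. Per the study's methods and the submitters' processing notes, reads were aligned with TopHat2 2.0.9 and Bowtie2 2.0.6 to GRCm38/mm10 and counted with HTSeq 0.6.1, and the authors deposited FPKM values per gene and library. Whether counting used strand is not given in the sources used here. The tables also hold group means, fold changes, p-values and cluster numbers of the authors, which were not used. The members and gene lists were chosen with earlier results of these data known.

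Every value above 0 (100% of 462839) came out as a whole number of reads within 0.01 reads, which gave the depth of each library. A gene was tested if 3 or more libraries reached the equivalent of 10 reads (at median depth) and its reads summed to 15 or more. FPKM were scaled by a trimmed mean of log ratios (30% of ratios and 5% of levels trimmed), log2 transformed with a pseudocount of 0.5, and tested with limma 3.58.1 in R 4.3.3 (moderated, two-sided, trended variance) with Benjamini-Hochberg adjustment over all genes tested. Genotypes were compared within a stage over its 9 libraries, and stages and interactions over all 27. The scripts were tested on simulated data. Alternatives were no scaling, median of ratios scaling, pseudocounts of 0.1 and 1, no filter, the replicate number as a block, limma-voom on recovered reads, other sets of libraries, and each library left out. Genes were named from the lists by rule: all members, up to 3 called genes a list and up to 4 neighbours by adjusted p. Those with the highest Pearson correlation to a member were also named. In the day 5 libraries, same-numbered libraries of different genotypes deviated together in all 9 pairs (r from 0.245 to 0.715). The labels do not say whether the numbers pair these libraries, and differently numbered libraries were not compared. The main tests and the leave-outs did not use the replicate number. At the naive and 12 h stages 3 of 9 pairs exceeded 0.1. Figures were drawn with matplotlib 3.10.9, and summaries used pandas 2.3.3 and numpy 2.4.6 under Python 3.11.15. A gene of 1 list is not reported here.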

Additional observations from a re-analysis of the deposited data

Results flagged for a closer look

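The lin28Tg difference from WT itself differed between stages for 4 members, by limma's interaction test with adjustment over all genes tested. Values are log2 differences between stages with their SE. For Slamf6 it was -2.00 ± 0.38 for day 5 minus 12 h (adjusted p = 0.0021) and -1.92 ± 0.38 for day 5 minus naive (0.0015), and neither call was lost without any 1 library. Slamf1 gave -0.75 ± 0.19 for 12 h minus naive (0.0173), lost without WT naive replicate 2 or lin28Tg naive replicate 2 (0.0527 to 0.0696), and -0.93 ± 0.19 for day 5 minus naive (0.0016). The Slamf7 values were -1.77 ± 0.34 for 12 h minus naive (0.00269) and -1.07 ± 0.34 for day 5 minus naive (0.0351), of which the latter was lost without any of 9 libraries of 27, the naive WT replicates 2 and 3, naive lin28Tg replicates 2 and 3, WT CTL replicates 1 and 2 and all lin28Tg CTLs (0.0504 to 0.129). For Sh2d2a the difference was 0.54 ± 0.16 for day 5 minus 12 h (0.0473), a call lost in 20 of 27 leave-outs (0.0506 to 0.161). Naive lin28Tg libraries, which enter 5 of these values, carried the myeloid and erythroid marker RNA described above, and its part was not tested.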

How the results depend on the processing

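No called log2 fold change examined changed sign. Among the uncalled values, Slamf1 for lin28Tg against WT in naive cells (-0.02) was 0.034 without scaling, 0.0055 with median of ratios scaling, 0.00058 in a fit of all 27 libraries and from -0.098 to 0.043 with 1 library left out, and Sh2d1a for 12 h against naive in lin28Tg cells (-0.16) ranged from -0.37 to 0.23 with 1 library left out. Of single values under other settings 1098 kept their side of the threshold and sign, 61 lost the call and 11 gained it, and with 1 library left out 2155 kept them, 147 lost the call and 7 gained it. The count of members called for lin28Tg against WT in naive cells went from 4 to 1 in a fit of all 27 libraries. For let-7Tg against WT in CTLs it went from 1 to 0 without scaling, without the filter, by voom and with the 6 libraries alone, and to 2 in the fit of 27. The count for the lin28Tg effect of 12 h minus naive went from 2 to 1 by voom, and that of day 5 minus 12 h from 2 to 1 without scaling, with median of ratios, without the filter, by voom and with the 2 stages alone. With 1 library left out, counts ranged from 2 to 4 (lin28Tg against WT, naive), 2 to 4 (lin28Tg against let-7Tg, 12 h), 1 to 3 (lin28Tg against WT, CTLs), 0 to 1 (let-7Tg against WT, CTLs), 3 to 6 (lin28Tg against let-7Tg, CTLs), 1 to 2 (lin28Tg effect, 12 h minus naive), 1 to 2 (lin28Tg effect, day 5 minus 12 h) and 0 to 1 (let-7Tg effect, day 5 minus 12 h). The causes were not tested. Slamf6 in lin28Tg CTLs rested on 24 to 70 reads a library.

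With the replicate number as a block, 7 in place of 5 members were called between lin28Tg and let-7Tg CTLs and 3 in place of 2 at 12 h, and the block changed no other call of a member. Over all genes the block called 1752 in place of 566 for lin28Tg against WT in CTLs, 528 in place of 121 for let-7Tg against WT and 4732 in place of 2812 between the transgenic genotypes, and for let-7Tg against WT 71 in place of 124 in naive cells and 240 in place of 396 at 12 h.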
